A study of Mus musculus with 2 samples.

Results

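The immunoglobulin constant-region and joining-chain genes Igkc, Ighm, Ighd, Igha, Ighg1, Ighg2c, Iglc1, Iglc2 and Jchain, 9 of the 32285 genes measured, were followed in tumor-infiltrating leukocytes that are not B cells. The 9 genes were taken by symbol and chosen by the raw UMIs of both libraries, in which molecules of several of them had been seen in T, NK and myeloid cells. Their presence outside B cells is therefore what chose them, and their levels are given as a description without a test. The samples came from young adult male C57BL/6 mice carrying the colon cancer cell line MC38 under the skin of both flanks. In both groups the right tumor received microwave ablation (MWA) at about 300 mm3, and CD45+ cells were sorted from the left tumor, which was not ablated, on day 8 after ablation. The MWA group had ablation with an isotype control antibody, as the study describes its treatment groups. The MWA plus TIGIT group had ablation and a TIGIT-blocking antibody, given into the peritoneum 3 times at 3-day intervals from day 1. Each group was 1 droplet library, the number of mice behind each library was not given in the sources used here, and treatment, library and tumor cannot be told apart.

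An antibody is built from paired heavy and light chains, and each chain joins a variable part, assembled from V segments in the developing B cell, to a constant part encoded by genes such as those followed here. Igkc encodes the constant part of the kappa light chain, Iglc1 and Iglc2 those of lambda chains, and Ighm, Ighd, Ighg1, Ighg2c and Igha those of the IgM, IgD, IgG1, IgG2c and IgA heavy chains. Naive B cells carry IgM and IgD at their surface, whereas plasma cells secrete large amounts of antibody, with Jchain linking the polymers of IgM and IgA. Transcripts of unrearranged heavy-chain constant genes, which make no antibody, are known from lymphoid cells outside the B lineage.

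Igkc lies on chromosome 6 of GRCm38, at positions 70726435 to 70726966 of the plus strand, inside the long non-coding gene Gm30211 on the same strand. The heavy-chain genes lie on the minus strand of chromosome 12, with Ighm at 113418558 to 113422730, Ighd at 113406604 to 113416324, Ighg1 at 113325240 to 113330523, Ighg2c at 113285325 to 113288932 and Igha at 113254830 to 113260236. Iglc1 at 19061618 to 19062071 and Iglc2 at 19198396 to 19200351 lie on the minus strand of chromosome 16, and Jchain lies on the minus strand of chromosome 5 at 88519809 to 88527891. Bases near the 3′ ends of the lambda genes help to tell their molecules apart. The last 60 coding bases, stop codon included, are shown with Iglc3, a neighbor outside the 9 genes. Positions that differ among the genes are in capitals.
Iglc1: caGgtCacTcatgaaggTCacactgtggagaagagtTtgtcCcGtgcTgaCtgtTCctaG
Iglc2: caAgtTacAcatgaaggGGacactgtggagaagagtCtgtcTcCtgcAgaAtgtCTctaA
Iglc3: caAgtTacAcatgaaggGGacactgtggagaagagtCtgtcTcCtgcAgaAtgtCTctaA
Over these bases Iglc2 and Iglc3 were identical, and Iglc1 differed from both at 13 positions. Over the aligned coding parts, Iglc2 and Iglc3 were 96.2% identical. Counts of Iglc2 and Iglc3 are uncertain where reads fall on shared coding bases, since such reads may have been split between them or dropped. The untranslated bases beyond the stop codon were not compared.

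The libraries held 10217 barcodes in the MWA library and 10190 in the MWA plus TIGIT library, with 66152465 and 78751205 unique molecular identifiers (UMIs, each standing for 1 captured RNA molecule counted at its 3′ end). After filters, 9173 and 9095 cells remained, with a median of 5295 and 6274 UMIs, and Ptprc, the gene of CD45, had a UMI in 84.4% and 88.0% of them. The libraries shared 37 barcodes. Cells were clustered with all 394 immunoglobulin genes, Jchain included, left out, so the 9 genes did not decide any cluster. The B-like cluster, led by Cd79a, Ebf1 and Ms4a1, held 83 and 59 cells. It left 9090 and 9033 non-B cells in 33 clusters, of which 23 were given a cell class name and 10 were called by their leading genes alone. Some clusters with a class name, such as cycling T-like, had no listed marker among their leading genes, and some of the 10 others had such markers. In addition, 3 plasma-like cells, each with UMIs of at least 4 of the 6 plasma cell markers, were found in the MWA plus TIGIT group and none in the MWA group. All intervals below are exact 95% intervals that cover counting error only. A level is given as UMIs per 100 cells or as CPM, the UMIs per 1000000 UMIs of the same cells, and with 3′ counting neither needs division by transcript length.

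In the MWA group the 9 genes had 5333 UMIs in all, of which 56.8% lay in non-B cells. In the MWA plus TIGIT group they had 39671 UMIs, of which 84.5% lay in the 3 plasma-like cells and 10.6% in non-B cells. The genes divided unequally between the compartments. Ighm, the IgM heavy chain, was found mainly outside B cells, with 2686 of 3018 UMIs (89.0%) in non-B cells of the MWA library and 3167 of 5860 (54.0%) in the MWA plus TIGIT library. Igkc, the kappa light chain, had 208 of 1698 UMIs (12.3%) and 835 of 26705 UMIs (3.13%) there. Igha, the IgA heavy chain, had 66 of 67 UMIs in non-B cells of the MWA library, and 72 of 2376 in the MWA plus TIGIT library, where 2303 lay in plasma-like cells. Ighd had 27 of 115 and 50 of 133 UMIs in non-B cells, Iglc1 10 of 170 and 21 of 154, Iglc2 25 of 259 and 26 of 243, Ighg2c 2 of 2 and 27 of 2674, and Jchain 4 of 4 and 13 of 1526. Ighg1 had no UMI in any kept cell, and 3 counts would have been 0.0330 UMIs per 100 non-B cells in the MWA library and 0.0332 in the MWA plus TIGIT library.

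Summed over the 9 genes, non-B cells stood at 54.3 CPM in the MWA library and 63.3 in the MWA plus TIGIT library, a log2 ratio of 0.22 (0.15 to 0.29). A UMI of any of them was found in 18.7% and 24.1% of non-B cells, or in 5.65% and 6.94% after each cell was thinned to 1000 UMIs. Ighm supplied most of these UMIs in both libraries, and the genes differed in where they lay.

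**Figure D1:**
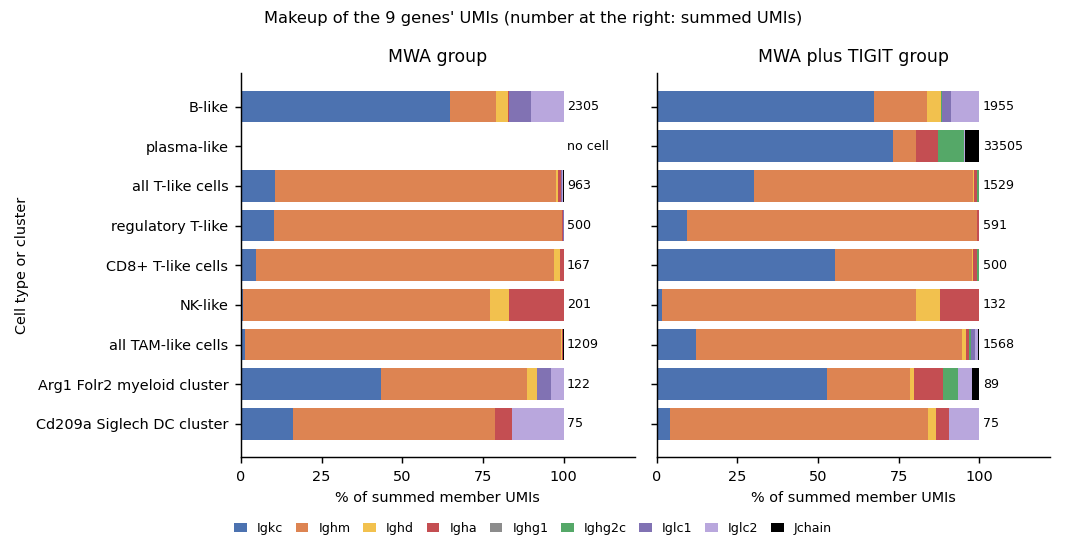
Horizontal bars give the percent of the summed UMIs of the 9 genes (x axis) that each gene (color) supplied in each cell type or cluster (y axis), with the MWA group at the left, the MWA plus TIGIT group at the right, and the summed UMIs beside each bar. Igkc made 64.6% and 67.2% of the UMIs of B-like cells, while Ighm made 98.1% and 82.7% of those of TAM-like cells. The TAM-like class leaves out the Arg1 Folr2 myeloid cluster, which has its own bar.

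The B lineage cells set the scale for the other cells. B-like cells held 1795 Igkc UMIs per 100 cells in the MWA library and 2227 in the MWA plus TIGIT library, which was 8439 and 8352 CPM. Ighm stood at 400.0 and 547.5 UMIs per 100 B-like cells and Ighd at 106.0 and 140.7. Igkc was found in 80 of 83 and 56 of 59 B-like cells, with a median of 16 and 20 UMIs. UMIs of both light-chain types were frequent, since 33 and 30 B-like cells had at least 5 UMIs of kappa and at least 5 of lambda genes. The 3 plasma-like cells each held 1 main heavy chain. The first had 6018 Igkc, 2301 Igha and 910 Jchain UMIs among its 15241 UMIs. The second had 5410 Igkc, 2370 Ighm and 365 Jchain UMIs among 19344. The last had 13128 Igkc, 2639 Ighg2c and 238 Jchain UMIs among 24046. Each of them also had its own leading V segments, Ighv3-6 with Igkv8-30, Ighv5-17 with Igkv3-5, and Ighv8-8 with Igkv1-110. The 9 genes made between 42.2% and 66.8% of all UMIs of these cells.

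Igkc was sparse outside the B lineage in the MWA library and less so in the MWA plus TIGIT library. It stood at 2.29 UMIs per 100 non-B cells (1.99 to 2.62) in the MWA library and at 9.24 (8.63 to 9.89) in the MWA plus TIGIT library. These levels were 785 times (678 to 911) and 241 times (221 to 263) lower per cell than in B-like cells, which were much shallower, and 2264 and 665 times lower as CPM. The share of non-B cells with an Igkc UMI was 1.07% at a median depth of 5347.5 UMIs and 5.60% at 6321, against no cell of 96 and 2 of 88 in the neutrophil-like cluster at median depths of 921 and 1151. With each cell thinned to 1000 UMIs, the shares of non-B cells were 0.328% and 1.55%. As CPM, Igkc was at 3.73 and 12.6, a log2 ratio of MWA plus TIGIT over MWA of 1.75 (1.53 to 1.98). Counting per cell rather than per UMI raised every such ratio over all non-B cells by 0.26, since the MWA plus TIGIT library was deeper. With cells of over 5000 UMIs left out, as the study's methods do, Igkc stood at 5.40 and 34.8 CPM, and the UMIs of the 9 genes lay in non-B cells to 30.9% and 41.3%. That limit changes which cells are counted. It leaves out all 3 plasma-like cells, which had 15241 to 24046 UMIs. It also leaves out most Selenop Mrc1 TAM-like cells, whose median depths were 8563 and 10515 UMIs.

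Among 14277 genes with at least 20 UMIs over both libraries' non-B cells, 118 (0.827%) had at least 2-fold higher CPM in the MWA plus TIGIT library and 144 (1.01%) at least 2-fold lower CPM. Of the 7 immunoglobulin genes that passed this minimum, Igkc and Ighg2c were among the former and none among the latter. Jchain, with 17 UMIs in all, and Ighg1 did not pass it. The differences rest on 1 library per group and have no replicate check.

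The spread of Igkc over cells had both a long tail and a broad base. In the MWA group, 70 non-B cells had 1 Igkc UMI, 9 had 2, 15 had 3 to 9, and 3 had 10 or more, with a highest count of 26. In the MWA plus TIGIT group these numbers were 380, 76, 44 and 6, with a highest count of 31. The 10 highest cells held 45.2% and 18.9% of the non-B Igkc UMIs, and the variance over the mean was 7.603 and 5.435. The highest myeloid cells also carried other B cell genes. The cells with 20 and 26 Igkc UMIs in the Arg1 Folr2 myeloid cluster of the MWA group held UMIs of 6 and 4 of the 10 B cell markers, and all 6 non-B cells with 10 or more Igkc UMIs in the MWA plus TIGIT group held UMIs of 3 or more of them. The single type 1 DC-like cell with an Igkc UMI, among 28 in the MWA plus TIGIT group, had 24 of them and UMIs of 7 B cell markers. By contrast, the regulatory T-like cell with 10 Igkc UMIs in the MWA group held none. Over all non-B cells, a B cell marker UMI was found in 9.28% (4.33 to 16.9) of cells with an Igkc UMI and 6.52% (6.01 to 7.05) of cells without in the MWA library, and in 9.29% (6.91 to 12.2) and 7.01% (6.48 to 7.58) in the MWA plus TIGIT library. A UMI of Cd79a alone was found in 2 of 97 cells with an Igkc UMI and 19 of 8993 without in the MWA library. In the MWA plus TIGIT library it was found in 7 of 506 and 14 of 8527. Of the cells with both genes, 2 and 6 were among those with 10 or more Igkc UMIs. Without the 10 non-B cells of each library that held most UMIs of the 9 genes, the log2 ratio of Igkc between the groups was 2.14. The part of barcodes that hold more than 1 cell in the remaining counts was not tested.

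**Figure D2:**
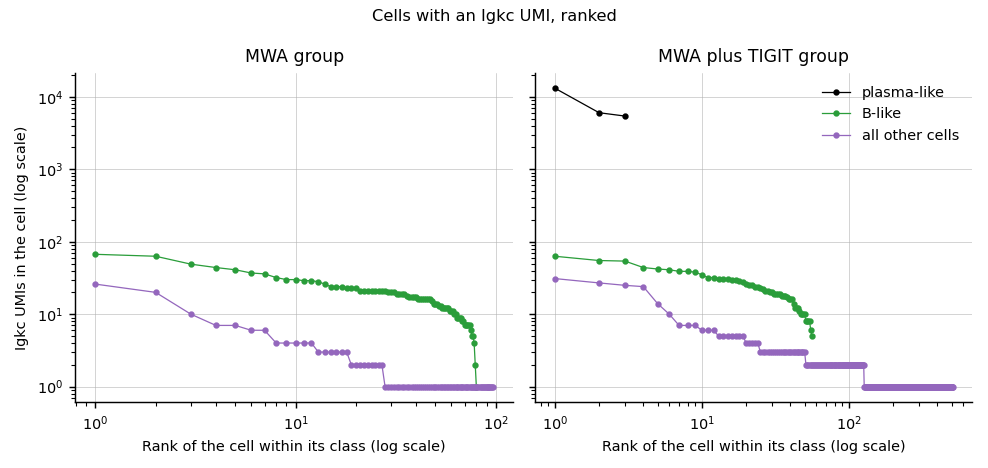
Each point is 1 cell with an Igkc UMI, ranked within plasma-like, B-like and all other cells (x axis, log scale) by its Igkc UMIs (y axis, log scale), with the MWA group at the left and the MWA plus TIGIT group at the right. The plasma-like cells sit at 5410 to 13128 UMIs, the highest other non-B cells at 26 and 31, within the range of the B-like cells, and 70 and 380 non-B cells at a single UMI.

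Igkc was found at a higher CPM in the MWA plus TIGIT library in 28 of the 33 non-B clusters. Of the 22 clusters with an Igkc UMI in both libraries, the interval of the ratio lay above 0 in 12 and below 0 in 1. These intervals do not cover the uneven spread of UMIs over cells. Among the 12, 1 cell held 14 of 18 MWA plus TIGIT UMIs in the Hp Vcan and 27 of 36 in the Il1b Chil3 monocyte-like cells. Likewise, 1 cell held 25 of 41 in the Mcm cycling and 31 of 51 in the Mmp12 Hmox1 TAM-like cells. Those cells held UMIs of 8, 7, 6 and 4 of the 10 B cell markers. The number of intervals above 0 without them was not computed. In TAM-like cells, tumor-associated macrophages, the MWA group had 14 Igkc UMIs in 14 of 2930 cells, and the MWA plus TIGIT group 189 UMIs in 120 of 2940 cells, or 0.538 and 5.86 CPM. The Arg1 Folr2 myeloid cluster had more monocyte than TAM markers among its leading genes and is not part of the TAM-like class. Within the class, only the Selenop Mrc1 cells had TAM markers among their leading genes, so the class was not set by that count alone. Over both libraries its C1qa, a complement gene of macrophages, stood at 6250 CPM. The Selenop Mrc1 and Mmp12 Hmox1 TAM-like cells were at 6395 and 2995, and the Il1b Chil3 and Hp Vcan monocyte-like cells at 1367 and 209. The Arg1 Folr2 cluster went the other way, with 53 and 47 Igkc UMIs (7.09 and 4.81 CPM, log2 ratio -0.56, -1.16 to 0.03), of which 46 of the 53 lay in 2 cells. The 2 cells held UMIs of 6 and 4 of the 10 B cell markers, and the direction of this ratio rests on them. They are also part of the wider class that follows, and neither ratio was computed without them. With that cluster added, the values were 67 and 236 UMIs, or 2.0 and 5.61 CPM, and the log2 ratio was 1.49 (1.09 to 1.90) rather than 3.45. The highest TAM-like counts in the MWA plus TIGIT group were 31, 25 and 10, and 111 of the cells had a single UMI. NK-like cells had 1 Igkc UMI in 162 cells and 2 in 114. Regulatory T-like cells, marked by Foxp3 and Il2ra, had 51 Igkc UMIs in 722 cells (27.7 CPM) and 56 in 601 (30.4 CPM), and their log2 ratio of 0.13 had an interval from -0.44 to 0.71.

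A wide gap between the groups was seen in CD8+ T-like cells, a class of 3 clusters named from CD8 T cell markers. The MWA group had 8 Igkc UMIs, 1 each in 8 of 933 cells, whereas the MWA plus TIGIT group had 277 UMIs in 1027 cells, of which 17.2% had a UMI. The CPM was 1.77 and 58.5, a log2 ratio of 5.05 (4.05 to 6.27). The Gzma Klrg1 and Gzmf Pdcd1 lymphoid clusters, which also held Cd8b1 but were not named as CD8+ T-like, had 6 and 32 and 13 and 6 Igkc UMIs. With them added, the values were 27 and 315 UMIs, and the log2 ratio was 3.53 (2.96 to 4.15). Cd8b1 also stood at 678.6 CPM in interferon-induced, 536.2 in Ccl1 Penk and 494.3 in cycling T-like cells, and at 500.1 in the Dapl1 Lef1 cluster. The Dut Phgdh cluster of the class was at 542.8. Those outside the class were not added, and had 1 and 26, 4 and 5, 30 and 76, and 0 and 1 Igkc UMIs. Within the class, the Dut Phgdh cluster had 1 and 59 Igkc UMIs, and the Bcl2 Satb1 cluster 2 and 6, with an interval of its log2 ratio from -0.31 to 5.51. In the cluster led by Trav16 and Gzmk, the level was 5 UMIs in 298 cells and 212 UMIs in 545 cells, and in the latter 82 cells had 1 UMI, 31 had 2, 18 had 3 to 9 and none had more than 7. A B cell marker UMI was found in 16 of 283 T-like cells with an Igkc UMI and in 92 of 2702 without one in the MWA plus TIGIT group (5.65% and 3.41%). Within the Trav16 Gzmk cluster of that group, Igkc stood at 35.7, 40.7 and 40.3 UMIs per 100 cells in cells of lowest, middle and highest depth, 3 sets of equal size with overlapping intervals. In TAM-like cells of the same group split the same way it was 3.27, 5.92 and 10.1. The median depths of these sets ran from 2609.5 to 4225 UMIs in the Trav16 Gzmk cluster and from 6707.5 to 15419.5 in TAM-like cells. As CPM, Igkc was at 143.7, 122.6 and 91.05 in the former and at 5.21, 5.70 and 6.21 in the latter.

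**Figure D3:**
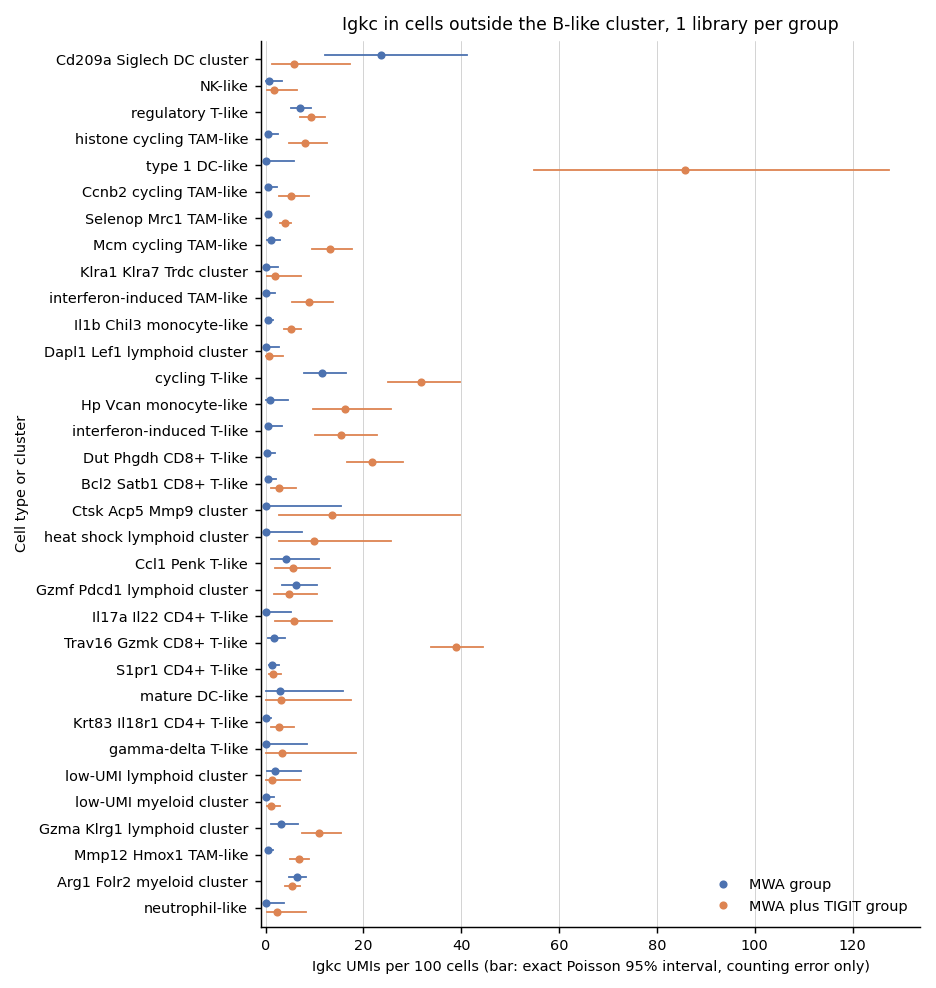
Points give Igkc UMIs per 100 cells (x axis) with exact Poisson 95% intervals for each non-B cluster (y axis, in the order of their Ighm level), with the MWA group in blue and the MWA plus TIGIT group in orange. The Trav16 Gzmk CD8+ T-like cluster stood at 1.68 and 38.9, regulatory T-like cells at 7.06 and 9.32, and the point of the type 1 DC-like cluster at 85.7 rests on 1 cell.

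Trav16 encodes a variable segment of the T cell receptor alpha chain, and cells with its UMIs were unevenly divided between the libraries, at 10 of 933 CD8+ T-like cells in the MWA library and 313 of 1027 in the MWA plus TIGIT library. In the latter, Igkc was found in 30.7% (25.6 to 36.1) of the cells with a Trav16 UMI and in 11.3% (9.11 to 13.9) of the 714 without one, at median depths of 3656 and 4315 UMIs. Thinned to 1000 UMIs, these shares were 10.6% and 3.099%. In the MWA group, none of the 10 cells with a Trav16 UMI had an Igkc UMI, with an exact upper bound of 30.9%, and 8 of 923 without one had. Ighm did not divide this way, with a UMI in 17.3% (13.2 to 21.9) of the cells with a Trav16 UMI and 15.8% (13.2 to 18.7) of those without in the MWA plus TIGIT group. Of the other receptor segments with at least 30 CD8+ T-like cells, Igkc was found in 18 of 45 cells with a Trav9-2 UMI and 9 of 33 with a Trbv19 UMI in the MWA plus TIGIT group, and in none of 33 cells with a Trav16n UMI in the MWA group. Trav16 and Trav16n are similar segments, and counts may be split between them. Without cells with a Trav16 UMI, the log2 ratio of Igkc over all non-B cells was 1.35 (1.12 to 1.58).

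**Figure D4:**
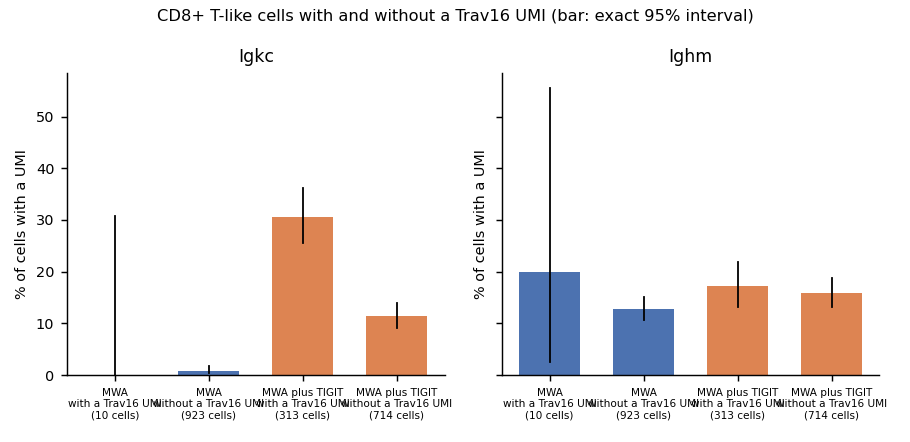
Bars give the percent of CD8+ T-like cells with an Igkc UMI (left) and with an Ighm UMI (right), split by a Trav16 UMI within each library, with exact 95% intervals as lines. Igkc was found in 30.7% and 11.3% of the MWA plus TIGIT cells with and without Trav16, and Ighm in 17.3% and 15.8%.

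Whether Igkc reads in part belong to the overlapping gene Gm30211 was not tested. That gene had 7 UMIs in CD8+ T-like cells and none in TAM-like cells of the MWA plus TIGIT group, and none in either type in the MWA group. Of the 13 Gm30211 UMIs in non-B cells of the MWA plus TIGIT group, 11 lay in T-like cells, 6 of them in the Trav16 Gzmk cluster. Among the 7 in CD8+ T-like cells, 5 lay in cells with a Trav16 UMI. B-like cells had 13 and 22 Gm30211 UMIs, and the 3 plasma-like cells had 9.

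The lambda light chains were rarer than Igkc and lay in few cells. Iglc1 had 10 UMIs in 5 non-B cells of the MWA group and 21 in 6 cells of the MWA plus TIGIT group, where 15 lay in 1 histone cycling TAM-like cell that also held UMIs of 8 B cell markers. Iglc2 had 25 UMIs in 10 non-B cells and 26 in 9. The cluster of dendritic cells led by Cd209a and Siglech held 12 and 7 of them, in 1 and 2 cells. Iglc3, which cannot be told apart from Iglc2 over its last 60 coding bases, had 39 and 57 non-B UMIs, and 36 and 41 of these lay in the 8 and 9 cells of that cluster with a UMI of Siglech, a marker of plasmacytoid dendritic cells. The 43 and 42 cells of the cluster without a Siglech UMI had none. Cells with Siglech also held more Ighm, at 275.0 and 355.6 UMIs per 100 cells against 58.1 and 66.7. They had 20 and 16 UMIs of Mzb1, against none. Mzb1, a secretory pathway gene, is one of the plasma cell markers. It was also a leading gene of the B-like cluster, at 81.9 and 86.4 UMIs per 100 B-like cells.

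Ighm was the gene most often found outside the B lineage. It stood at 29.6 UMIs per 100 non-B cells (28.4 to 30.7) in the MWA library and 35.1 (33.9 to 36.3) in the MWA plus TIGIT library, which were 13.5 and 15.6 times lower per cell than in B-like cells and 39.1 and 43.1 times lower as CPM. As CPM it was at 48.1 and 47.6, with a log2 ratio of -0.01 (-0.09 to 0.06), whereas per cell the ratio was 0.25 (0.17 to 0.32), so the sign depends on the scale. A UMI was found in 17.6% and 19.0% of non-B cells, against 3.13% and 2.27% of neutrophil-like cells at much lower depth, and thinned to 1000 UMIs the shares were 5.18% and 5.40% against 1 of 41 and 1 of 50 neutrophil-like cells. Unlike Igkc, its counts had almost no tail. The highest cells held 10 and 14 UMIs, the 10 highest cells held 2.83% and 3.41% of the non-B Ighm UMIs, and the variance over the mean was 2.20 and 2.63.

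The level of Ighm differed between types in a similar order in both libraries. By CPM, regulatory T-like cells, NK-like cells and the Cd209a Siglech DC cluster were the highest in the MWA group at 243.1, 185.3 and 151.2, and stood at 287.2, 172.3 and 153.7 in the MWA plus TIGIT group. Per cell, the DC cluster (92.2 and 117.6 UMIs per 100 cells) and NK-like cells (95.1 and 91.2) had overlapping intervals in both libraries. Regulatory T-like cells followed at 61.9 and 88.2. Low levels per cell, with overlapping intervals in the MWA group, were those of the Mmp12 Hmox1 TAM-like cells at 4.67 and 4.94, the Arg1 Folr2 myeloid cluster at 6.56 and 2.60, the Gzma Klrg1 lymphoid cluster at 4.62 and 5.12, and neutrophil-like cells at 3.13 and 2.27. The last of these types were shallow, and as CPM the Gzma Klrg1 cluster stood at 21.6 and 19.96 and neutrophil-like cells at 28.9 and 16.1, above the Mmp12 Hmox1 cells at 6.86 and 5.96 and the Arg1 Folr2 cluster at 7.36 and 2.35.

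**Figure D5:**
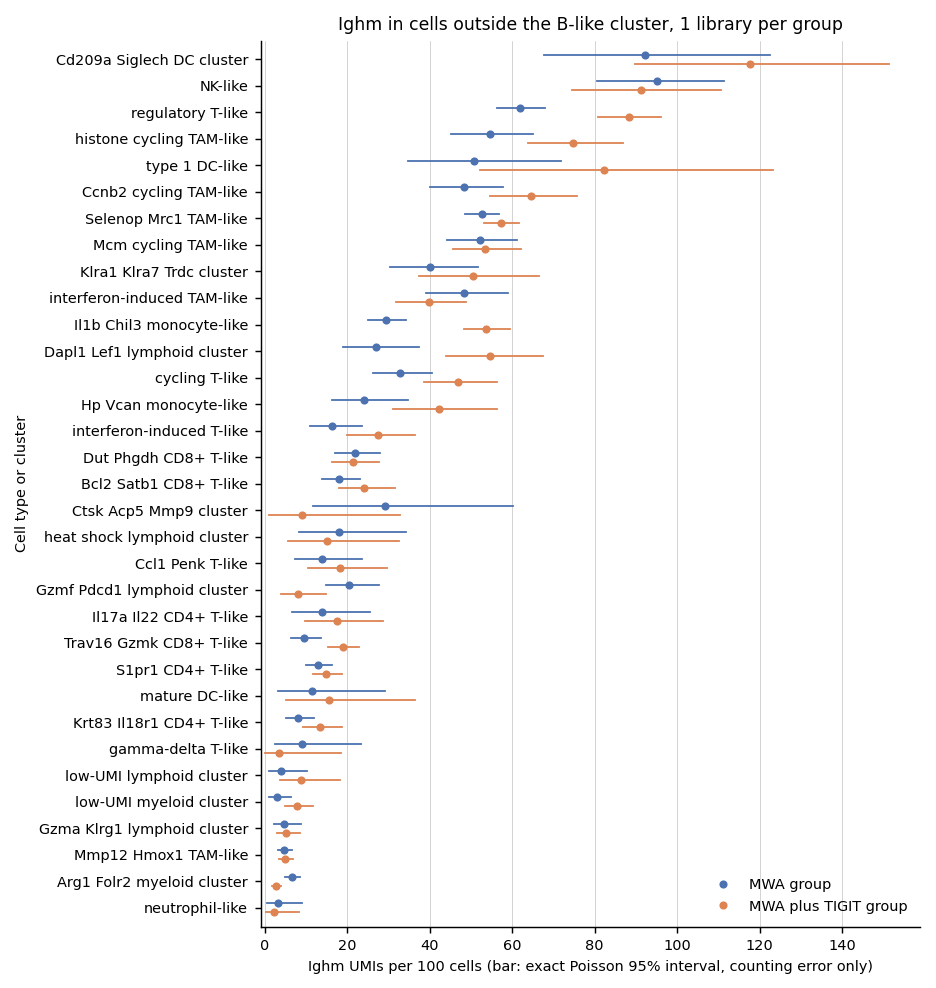
Points give Ighm UMIs per 100 cells (x axis) with exact Poisson 95% intervals for each of the 33 non-B clusters (y axis, ordered by the level over both libraries), with the MWA group in blue and the MWA plus TIGIT group in orange. NK-like cells stood at 95.1 and 91.2, regulatory T-like cells at 61.9 and 88.2, Selenop Mrc1 TAM-like cells at 52.6 and 57.2, and the Arg1 Folr2 myeloid cluster at 6.56 and 2.60.

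Myeloid clusters of like depth differed. The Selenop Mrc1 TAM-like cells, which express a scavenger receptor and a selenium transport protein, had 663 Ighm UMIs in 1261 cells and 684 in 1195. The Arg1 Folr2 myeloid cluster, led by arginase 1, had 55 in 838 cells and 23 in 885, at median depths of 8818.5 and 11016 against 8563 and 10515. The ratio of CPM was 8.26 (6.27 to 11.1) in the MWA library and 22.6 (14.9 to 35.9) in the MWA plus TIGIT library. Of the genes with at least 20 UMIs, 2.92% and 3.6% were at least 2-fold higher in the same direction, and of Igkc and Ighm, which passed the minimum, Ighm was one in both libraries. When cells were split by depth into 3 sets, the intervals of these clusters did not overlap in any set, with the Selenop Mrc1 cells at 39.4, 54.1 and 64.3 UMIs per 100 cells and the Arg1 Folr2 cluster at 2.5, 6.81 and 10.4 in the MWA group. In the MWA plus TIGIT group they were at 53.6, 63.6 and 54.5 against 2.03, 2.03 and 3.73.

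Among T cells, regulatory T-like cells held more Ighm than the S1pr1 CD4+ T-like cells, which express the exit receptor S1pr1. The former had 447 UMIs in 722 cells and 530 in 601, the latter 73 in 567 and 74 in 499. The ratio of CPM was 5.26 (4.10 to 6.83) and 5.88 (4.60 to 7.61). Igkc also stood higher in the regulatory cells, by 5.47 (2.58 to 13.4) and 5.75 (2.73 to 13.96). Many other genes were also higher, since 14.9% and 13.8% of those with at least 20 UMIs were at least 2-fold higher in the regulatory cells, and Igkc and Ighm, the members that passed the minimum, were both among them. In the MWA group, 7 of the 8 Igkc UMIs of the S1pr1 cells lay in 1 cell. Within regulatory T-like cells, Igkc was found at like shares in cells with and without Ighm, with a UMI in 9 of 243 cells with Ighm and 18 of 479 without in the MWA library, and in 18 of 278 and 16 of 323 in the MWA plus TIGIT library.

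NK-like cells, marked by Ncr1, differed from T-like cells in the heavy chains they held. Igha had 34 UMIs in 24 of 162 NK-like cells and 16 UMIs in 12 of 114, against 11 UMIs in 3174 T-like cells and 16 in 2985. The ratio of CPM was 47.7 (23.6 to 104) and 21.5 (10.1 to 45.9). Ighd, the IgD heavy chain, had 12 UMIs in 162 and 10 in 114 NK-like cells, against 4 and 3 in T-like cells. Ighm was higher in NK-like cells by 2.83 (2.37 to 3.37) and 2.15 (1.74 to 2.63). Of the genes with at least 20 UMIs, 6.55% and 6.92% were at least 2-fold higher in NK-like cells, and Ighm and Igha were among them of the 3 members that passed the minimum in each library. NK-like cells with an Ighm UMI had an Igha UMI in 20 of 70 and 10 of 46 cases, against 4 of 92 and 2 of 68 without, but they were also deeper, with medians of 6911.5 and 5642 UMIs against 3366.5 and 3487.5. Igkc had 1 and 2 UMIs in the same cells, and of the 10 B cell markers, 8 had no UMI in NK-like cells of both libraries, with 2 UMIs of Cd79b in the MWA library and 1 of Cd79a in the other.

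The class-switched Ighg2c and the joining chain gene Jchain were found at no more than 2 UMIs per non-B cell. Ighg2c had 2 UMIs in 2 non-B cells of the MWA group and 27 UMIs in 26 non-B cells of the MWA plus TIGIT library, a log2 ratio of CPM of 3.502 with an interval from 1.51 to 6.62. Of the 27 UMIs, 11 lay in TAM-like and 7 in T-like cells. Jchain had 4 and 13 UMIs, the 13 in as many cells. The 3 plasma-like cells of that group held 2639 Ighg2c and 1513 Jchain UMIs.

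Within a library, the genes did not keep a single ratio across cell types. Per 100 Ighm UMIs, B-like cells held 448.8 (398.2 to 507.0) and 406.8 (359.9 to 460.9) Igkc UMIs. TAM-like cells held 1.18 (0.643 to 1.99) and 14.6 (12.4 to 17.0), NK-like cells 0.649 and 1.92, and regulatory T-like cells 11.4 (8.37 to 15.3) and 10.6 (7.87 to 13.9). CD8+ T-like cells held 5.19 (2.20 to 10.5) in the MWA library and 130.7 (108.9 to 157.0) in the MWA plus TIGIT library. Per 100 Igkc UMIs in the MWA plus TIGIT group, Ighg2c stood at 10.7 (10.3 to 11.2) in plasma-like cells, 5.82 (2.86 to 10.7) in TAM-like cells, 1.52 (0.607 to 3.15) in T-like cells and 0.609 (0.262 to 1.20) in B-like cells. Jchain per 100 Igkc UMIs was at 6.16 (5.85 to 6.49) in plasma-like cells, 3.70 (1.47 to 7.78) in TAM-like cells, 0.651 (0.134 to 1.91) in T-like cells and 0 in B-like cells. The intervals of TAM-like and plasma-like cells overlapped for both genes, and those of T-like and plasma-like cells for neither.

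Other genes of the B lineage were compared with the 9 genes. Of the other constant genes, Iglc3 was followed in non-B cells by Ighg2b with 1 and 2 UMIs and Ighg3 with 4 and none, and Ighe and Iglc4 had none. Of 348 V segments measured, all had 5 UMIs together in non-B cells of the MWA library and 15 in the MWA plus TIGIT library, against 52 and 37 in B-like and 651 in plasma-like cells. The 15 UMIs fell on 13 segments, with 2 UMIs each of Igkv1-110 and Iglv1, and the MWA group's 5 on 5 segments, Igkv1-135, Igkv10-96, Ighv9-4, Ighv1-58 and Iglv3. Among 17 B lineage genes, Cd79a, the signalling partner of the B cell receptor, had 25 and 44 UMIs in non-B cells, or 0.275 and 0.487 per 100 cells, and Ms4a1 had 6 and 15. The most abundant of that list were Ralgps2 with 726 and 802 UMIs, Cd79b with 367 and 446, Bank1 with 158 and 156, and Cd22 with 115 and 172, followed by Blk with 38 in the MWA library and by Cd79a in the MWA plus TIGIT library, where Blk had 22. Of the plasma cell genes, Xbp1, Edem1, Creld2, Tnfrsf13b and Prdm1 had 1093 to 5753 and 1288 to 7262 UMIs in non-B cells, and Mzb1 and Tnfrsf17 had 22 and 4 in the MWA library and 21 and 2 in the MWA plus TIGIT library.

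Genes of other cell types give a measure of RNA found in cells that should lack it. The summed complement and macrophage genes C1qa, C1qb, C1qc, Apoe and Lyz2 stood at 421.3 and 440.2 UMIs per 100 T-like cells, against 36450 and 50830 in TAM-like cells. The T cell genes Cd3e, Cd3g, Trac, Trbc2 and Cd8b1 stood at 18.7 and 13.2 UMIs per 100 TAM-like cells, against 1493 and 1822 in T-like cells. The neutrophil genes S100a8, S100a9 and Retnlg stood at 4.29 and 3.25 UMIs per 100 T-like cells, against 10470 and 18750 in neutrophil-like cells, and red cell genes at 0.825 and 0.786 per 100 non-B cells. The summed B cell markers stood at 4.001 and 4.02 UMIs per 100 T-like cells and 13.96 and 17.4 per 100 TAM-like cells, against 1575 and 1958 in B-like cells. The part of free RNA in the UMIs of the 9 genes was not tested.

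The genes whose CPM followed that of Igkc most closely over clusters were Cdc34, Atg4a, Stard10, Arf6 and Baz1a, with Spearman correlations of log2(CPM + 1) of 0.57, 0.54, 0.54, 0.54 and 0.51 over 64 points among 10930 genes. Each point was 1 cluster of at least 50 cells over both libraries, taken in 1 library, and points of a library share its depth. The same ranking for Ighm was added after its values were seen, and genes among the highest were Ramp1 at 0.51, Ly6e at 0.49, Dnajc7 at 0.48 and Gramd4 at 0.45.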

How the data were processed

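CD45+ cells of 1 tumor sample per group were profiled with the 10x Genomics 3′ V3.1 chemistry. The deposited files hold raw UMI counts per gene and barcode, which the authors made with Cell Ranger against mm10. The labels name version 6.1.1, whereas the matrix header names 4.0.0. Library totals were 66152465 and 78751205 UMIs. Barcodes with under 200 genes or over 10% mitochondrial UMIs and called doublets (806 and 786) were left out. The doublet caller, tested on simulated doublets, found 75.3% and 72.7% of them. The study's methods exclude cells of over 5000 UMIs; here that limit was an alternative. Cells were integrated and clustered with Seurat 5.3.0 and named from markers or leading genes. Intervals are exact Poisson, Clopper-Pearson or conditional binomial intervals from scipy 1.17.1. With 1 library per group no test was made and no p-value is given. Alternatives included edgeR 4.0.16 TMM factors. Gene positions and the lambda sequences came from the GENCODE vM21 annotation of GRCm38. The 9 genes and all lists were chosen with earlier results of these data known. Named genes were the 9 genes, up to 5 of most non-B UMIs per list and V segments, and the 5 most like Igkc. Cd79a, Ms4a1, Mzb1, Tnfrsf17, Gm30211, Siglech and the T cell receptor segments were named after their values were seen, and the wider TAM-like and CD8+ T-like classes were added then.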

Additional observations from a re-analysis of the deposited data

Results flagged for a closer look

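Ighm differed between the libraries in opposite directions in different clusters, and whether the differences themselves differ was not tested. As log2 ratios of CPM of MWA plus TIGIT over MWA, it was higher in regulatory T-like cells by 0.24 (0.06 to 0.43), in Trav16 Gzmk CD8+ T-like cells by 0.89 (0.28 to 1.55), in the Dapl1 Lef1 lymphoid cluster by 0.83 (0.25 to 1.43) and in Il1b Chil3 monocyte-like cells by 0.40 (0.13 to 0.67). It was lower in the Gzmf Pdcd1 lymphoid cluster at -1.45 (-2.61 to -0.43), in Selenop Mrc1 TAM-like cells at -0.19 (-0.35 to -0.04), in the Arg1 Folr2 myeloid cluster at -1.65 (-2.42 to -0.92) and in interferon-induced TAM-like cells at -0.66 (-1.09 to -0.23). Counted per cell, the ratio was 0.12 (-0.03 to 0.28) in Selenop Mrc1 TAM-like cells, the opposite direction, and -0.28 (-0.71 to 0.15) in interferon-induced TAM-like cells, while the other 6 kept their direction with intervals on the same side of 0. These clusters were picked from 33 because their intervals lie on one side of 0, and each rests on 1 library per group. The low-UMI myeloid cluster met the same rule on 6 and 23 Ighm UMIs. Its log2 ratio was 1.37 (0.04 to 2.96) as CPM and 1.40 (0.06 to 2.98) per cell.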

How the results depend on the processing

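Of 97 alternative values of 11 results, 60 moved by less than their counting interval and 37 moved further. The log2 ratios of Igkc and of the sum stayed above 0 throughout. That of Ighm, at -0.015 with an interval that spanned 0 (-0.09 to 0.06), changed sign under 2 alternatives. It was 0.29 (0.15 to 0.42) in cells of at most 5000 UMIs and 0.25 (0.17 to 0.32) per cell. No paired analysis was possible because each group is 1 library. Keeping only cells of at most 5000 UMIs gave Igkc at 5.40 and 34.8 CPM in non-B cells (MWA and MWA plus TIGIT), the 9 genes at 76.0 and 120.3 CPM, log2 ratios of 2.69 for Igkc, 0.29 for Ighm and 0.66 for the sum, 30.9% and 41.3% of the UMIs of the 9 genes in non-B cells, and 6.70% and 9.97% of non-B cells with a UMI at 1000 UMIs. All 3 plasma-like cells of the MWA plus TIGIT group were over that limit. Counting per cell gave log2 ratios of 2.01, 0.25 and 0.48. Keeping doublets gave Igkc at 4.33 and 13.6 CPM and 60.9% and 12.4% of UMIs in non-B cells. Without the 10 highest cells, Igkc was at 2.41 and 10.6 CPM with a log2 ratio of 2.14, and the sum at 51.5 and 59.3 CPM. Calling B cells by marker UMIs alone gave Igkc at 2.90 and 10.5 CPM and, for MWA plus TIGIT alone, a sum of 59.7 CPM, 9.99% of UMIs in non-B cells and 6.37% of cells with a UMI. In cells with no UMI of the B lineage or plasma cell lists, Igkc was at 2.73 CPM in the MWA group, with a log2 ratio of 2.29. Without cells with a Trav16 UMI, an alternative chosen after seeing the data, that ratio was 1.35. The share of cells with a UMI of the 9 genes was 18.7% and 24.1% without thinning, 2.87% and 3.74% at 500 UMIs, and 9.11% and 12.3% at 2000 UMIs. Ighg1, Ighg2c, Jchain and Iglc1 are limited by low counts.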

Other observations

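The barcodes left out of all comparisons, 1044 of the MWA library and 1095 of the other library, held 576 and 886 UMIs of the 9 genes.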
